A study of Mus musculus with 3 samples.

Results

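The peaks at protein-coding gene ends are the H3K4me1 peaks on chromosomes 1 to 19 whose midpoint lay at most 1 kb from the start or the end of a protein-coding gene in the RefSeq annotation of GRCm38.p6, the assembly also named mm10. They numbered 11778 of the 133836 peaks on these chromosomes and of the 134401 peaks in all. The AKO library held 4849 of them, 7.80% of its 62194 peaks (Wilson 95% interval 7.59 to 8.01), and the WT library held 6929, 9.67% of its 71642 peaks (9.46 to 9.89). Histone H3 monomethylated at lysine 4 was mapped by chromatin immunoprecipitation and sequencing with antibody ab8895 in primary adipocytes, all from male mice of the C57BL/6J strain. The AKO library came from mice with LONP1, the Lon protease of the mitochondrial matrix, removed in adipocytes only, and the other from wild-type mice (WT). An input library without antibody was the background of both peak calls per the file headers, and its title ties it to the AKO library while its genotype label reads wild type. The number of mice behind a library, the fat depot, the driver of the deletion and the part of Lonp1 removed are not given in the sources used here. With 1 library per genotype there are no replicates, no test of genotype was possible, and the Wilson intervals cover counting error only.

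H3K4me1 is laid down by the MLL3 and MLL4 methyltransferases and is best known from enhancers, but it also lies on the shoulders of active promoters. At the start of an actively transcribed gene with a CpG island, the nucleosomes nearest the start tend to carry trimethylation, and monomethylation appears further out. Weak or poised promoters can instead carry H3K4me1 over the start itself. In fat cells the mark is known from regulatory sites bound by PPARG and C/EBP factors.

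Genes were split by the CpG content of their promoters because the position of the mark around the start differed between these classes. The 250 bases before the start of 5 genes, from RefSeq on GRCm38.p6, show the range, with CpG sites in capitals. Rhbdl1, a rhomboid-like protease gene (chr17:25837128-25837377, minus strand), is CpG-rich and had a WT end peak of 73 fragments, among the 5 tallest WT end peaks. Scd4, a stearoyl-CoA desaturase gene (chr19:44333076-44333325, plus strand), is CpG-poor and had an AKO end peak of 49 fragments, among the 5 tallest AKO end peaks. Cd34, encoding a surface protein of progenitors and endothelium (chr1:194938571-194938820, plus strand), is CpG-poor and had a WT peak of 39 fragments with no AKO peak within 1 kb. Insyn2a (chr7:134938431-134938680, minus strand) had the end with the largest deficit in AKO when only peaks with a midpoint within 1 kb were counted. Ucp1, the uncoupling protein of thermogenic fat (chr8:83290098-83290347, plus strand), is of intermediate CpG content.
Rhbdl1: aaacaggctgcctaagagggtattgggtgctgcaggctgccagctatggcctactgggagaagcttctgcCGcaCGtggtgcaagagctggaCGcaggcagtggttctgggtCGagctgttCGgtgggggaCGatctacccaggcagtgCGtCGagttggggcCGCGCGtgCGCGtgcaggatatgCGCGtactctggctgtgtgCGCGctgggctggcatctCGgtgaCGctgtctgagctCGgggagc
Scd4: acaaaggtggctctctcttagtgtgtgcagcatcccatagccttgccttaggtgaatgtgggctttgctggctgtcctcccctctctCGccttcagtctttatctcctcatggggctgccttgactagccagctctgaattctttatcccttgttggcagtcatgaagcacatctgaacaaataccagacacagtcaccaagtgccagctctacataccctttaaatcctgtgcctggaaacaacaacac
Cd34: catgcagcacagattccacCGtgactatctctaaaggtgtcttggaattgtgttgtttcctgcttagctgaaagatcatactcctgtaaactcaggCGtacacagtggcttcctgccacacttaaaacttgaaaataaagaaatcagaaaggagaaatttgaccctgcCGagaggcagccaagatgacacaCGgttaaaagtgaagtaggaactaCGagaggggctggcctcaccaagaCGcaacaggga
Insyn2a: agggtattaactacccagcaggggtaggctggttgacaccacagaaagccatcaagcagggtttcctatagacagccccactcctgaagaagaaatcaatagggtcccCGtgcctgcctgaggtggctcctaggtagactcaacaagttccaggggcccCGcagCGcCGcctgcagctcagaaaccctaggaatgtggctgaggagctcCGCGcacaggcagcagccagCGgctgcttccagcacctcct
Ucp1: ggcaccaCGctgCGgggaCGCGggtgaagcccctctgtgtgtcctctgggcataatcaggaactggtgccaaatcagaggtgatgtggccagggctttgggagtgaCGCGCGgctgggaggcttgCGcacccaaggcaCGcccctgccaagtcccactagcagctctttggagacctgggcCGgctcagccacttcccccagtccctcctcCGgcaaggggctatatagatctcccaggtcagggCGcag
These 250 bases hold 20 CpG sites at Rhbdl1, 1 at Scd4, 6 at Cd34, 7 at Insyn2a and 12 at Ucp1.

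Of 9 short motifs searched in the promoters, the core of the ETS factors' site, CCGGAA on either strand, occurred in 34.5% of those at gene starts marked in AKO alone and in 19.6% of all. Where a peak of the other library overlapped, the shares were 30.8% (end peak in AKO only) and 29.6% (in WT only). These shares also lay above that of all promoters, so the higher share was not shown to be particular to starts marked in AKO alone. The genes below were chosen among CpG-rich starts marked in AKO alone for having the core before the start. Surf2 (chr2:26916158-26916407, plus strand), Ap3s2 (chr7:79920641-79920890, minus strand) and Ddx39b (chr17:35241496-35241745, plus strand) had an end peak of 20, 18 and 18 fragments in the AKO library and none overlapping in the WT library. Surf2 shares its promoter region with a divergent gene of the surfeit cluster, Ap3s2 encodes an adaptor complex subunit, and Ddx39b encodes an RNA helicase of mRNA export. The sequences before their starts follow, with the ETS core in capitals, here on the opposite strand.
Surf2: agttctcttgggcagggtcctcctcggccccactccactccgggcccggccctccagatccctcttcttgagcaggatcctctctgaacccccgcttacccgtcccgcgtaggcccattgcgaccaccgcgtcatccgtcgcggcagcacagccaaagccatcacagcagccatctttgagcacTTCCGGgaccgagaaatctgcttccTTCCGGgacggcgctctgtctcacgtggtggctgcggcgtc
Ap3s2: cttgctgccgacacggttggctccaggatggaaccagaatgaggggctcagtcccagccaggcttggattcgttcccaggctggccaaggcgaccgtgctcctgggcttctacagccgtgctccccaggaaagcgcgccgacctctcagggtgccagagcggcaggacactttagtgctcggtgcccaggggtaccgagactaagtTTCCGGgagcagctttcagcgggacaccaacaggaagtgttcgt
Ddx39b: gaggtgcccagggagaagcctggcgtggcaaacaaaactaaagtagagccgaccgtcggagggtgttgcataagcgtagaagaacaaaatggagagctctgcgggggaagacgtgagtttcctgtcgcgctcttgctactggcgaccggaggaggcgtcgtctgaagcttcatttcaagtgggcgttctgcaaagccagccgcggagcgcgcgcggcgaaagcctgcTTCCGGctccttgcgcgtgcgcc
The core occurs at 2 positions in the Surf2 sequence and at 1 position in each of the other 2.

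Fewer gene ends were marked in AKO than in WT, and the shortfall was larger than elsewhere in the genome. The AKO to WT ratio of peak number was 0.6998 at gene ends and 0.886 among the 57345 AKO and 64713 WT peaks elsewhere. The ratio of summed peak length was 0.552 at gene ends and 0.760 elsewhere, with 3555 kb in AKO and 6435 kb in WT at gene ends. On all 19 chromosomes the ratio of number was lower at gene ends (0.605 to 0.797) than elsewhere (0.828 to 0.948). Library depth differed little, with 14733950 AKO and 15015805 WT tags after removal of duplicates. The WT library had stronger peaks throughout, which also moves with these ratios, and its part in them was not tested.

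End peaks were taller and longer than other peaks, more so in WT. Height is given as the number of overlapping fragments at the summit, which is the pileup over the library's scale factor. The median end peak had 19 fragments in AKO and 22 in WT, against 18 in AKO and 19 in WT for peaks elsewhere. The tallest had 70 fragments in AKO and 85 in WT, and the smallest called summit held 10 in either library, so weaker ends were not detectable at this depth. Over 30 fragments, or exactly that many, were found in 9.34% of AKO and 27.2% of WT end peaks, against 5.08% and 13.2% of AKO and WT peaks elsewhere. The median length was 559 bp in AKO and 690 bp in WT at gene ends, against 508 bp in AKO and 557 bp in WT elsewhere. End peaks of the AKO library were thus closer to its other peaks in height than those of the WT library were.

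Strand was known for 16457 of the 20665 protein-coding genes, 79.6%, from the RefSeq promoter table, so that 5′ and 3′ ends could be told apart there. The ends of the other 4208 genes, all 511 on chromosome 18 among them, are called unoriented. The difference between the libraries was largest at 5′ ends. Peaks nearest a 5′ end numbered 2325 in AKO and 3645 in WT, a ratio of 0.638. Peaks nearest a 3′ end numbered 1351 in AKO and 1675 in WT, a ratio of 0.807, and unoriented ends gave 1173 in AKO and 1609 in WT, a ratio of 0.729. In terms of ends, 2367 (14.4%) of the 5′ ends had a peak in AKO and 3669 (22.3%) in WT. Of the 3′ ends, 1400 (8.51%) had a peak in AKO and 1775 (10.8%) in WT.

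Around 5′ ends the midpoints lay mostly downstream, inside the gene, in both libraries. The downstream side held 70.3% of AKO and 69.2% of WT midpoints, at a median of 285.5 bp in AKO and 259 bp in WT downstream of the start. Around 3′ ends the interior side also held the larger share, 56.3% in AKO and 58.4% in WT. In the share of all 5′ ends covered by a peak, the maximum lay beyond the 1 kb limit, at 11.4% of ends 1900 bp downstream in AKO and at 15.7% of ends 1600 bp downstream in WT. At the start itself a peak covered 5.59% of 5′ ends in AKO (920 ends) and 11.4% in WT (1882 ends), an AKO to WT ratio of 0.489. The ratio was lowest, 0.436, at 300 bp upstream of the start. It was 0.745 between 2.5 and 3 kb away, with counts pooled over both sides here and below. At 2.5 kb it was 0.696 upstream and 0.753 downstream. Both curves rose through the start. Upstream, the AKO curve had a shallow low of 3.37% at 600 bp, below its 4.39% at 1400 bp, while the WT curve had 6.61% at 600 bp and 6.31% at 1400 bp. At 3′ ends both curves dipped, to 2.92% in AKO and 4.79% in WT, and the ratio was 0.610 at the end and 0.657 at 2.5 to 3 kb.

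**Figure D1:**
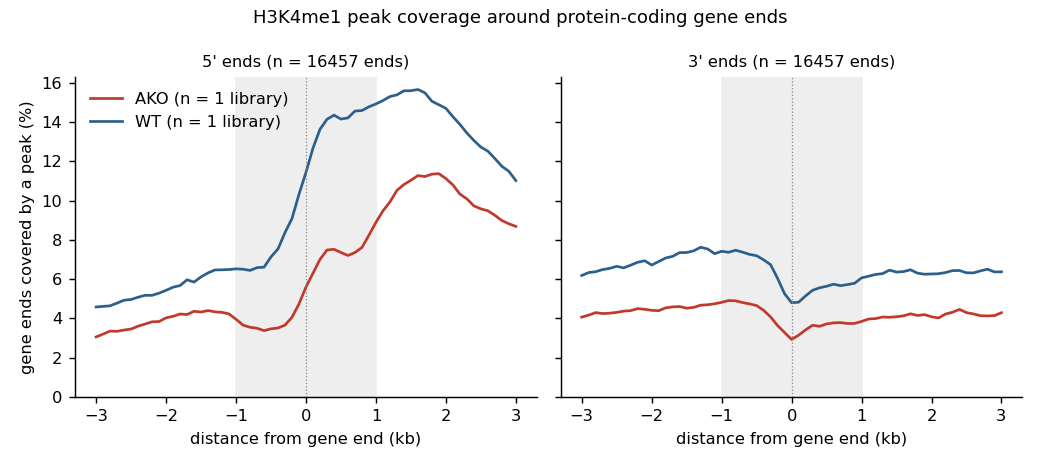
Share of protein-coding gene ends covered by an H3K4me1 peak (y axis, %) against the distance from the end in the direction of transcription (x axis, kb) for 16457 5′ ends (left) and 16457 3′ ends (right), in AKO (red) and WT (blue), with the 1 kb window shaded. At the 5′ end itself AKO covers 5.59% of ends and WT 11.4%, while both curves fall at 3′ ends.

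Promoters were classed on the 300 bases around the start where the table's start lay within 100 bp of the annotated gene end, which held for 12679 genes. CpG-rich promoters, with an observed to expected CpG ratio of at least 0.6 and at least 55% G and C, had an end peak at 858 of 5128 (16.7%) in AKO and at 1336 (26.1%) in WT. CpG-poor promoters, with a ratio below 0.4, had one at 409 of 5106 (8.01%) in AKO and at 642 (12.6%) in WT. The 2445 intermediate promoters had one at 15.7% in AKO and 25.2% in WT. The AKO to WT ratio of marked 5′ ends was close to equal in the 3 classes, at 0.642 for CpG-rich, 0.621 for intermediate and 0.637 for CpG-poor. Where the mark lay did differ between the classes. At CpG-rich promoters coverage was highest 1900 bp downstream in AKO (19.4%) and 1600 bp downstream in WT (24.9%), and at CpG-poor promoters 300 bp downstream in AKO (4.54%) and 200 bp downstream in WT (8.99%). The AKO to WT ratio of coverage at CpG-rich promoters was 0.380 at 300 bp upstream and 0.796 at 2.5 to 3 kb, both sides pooled. At 2.5 kb this ratio was 0.725 upstream and 0.819 downstream. At CpG-poor promoters it was lowest at the start itself, 0.470, and 0.641 at 2.5 to 3 kb. The peaks of CpG-poor promoters had heights like those of the CpG-rich class, with medians of 20 fragments in AKO and 22 in WT against 20 in AKO and 24 in WT.

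Head-to-head genes, whose 5′ ends lie within 1 kb of the 5′ end of a gene on the other strand, had fewer marked starts than the remaining genes. Of 1127 such ends, 117 (10.4%) were marked in AKO and 165 (14.6%) in WT, against 14.7% in AKO and 22.9% in WT of the remaining 15330. Coverage over the start itself was 2.04% in AKO (23 ends) and 3.28% in WT (37 ends). It was highest 1300 bp downstream in AKO (16.8%) and 1400 bp downstream in WT (19.9%), so the valley over divergent starts was present in both libraries. Gene length also went with marking. At 5′ ends the marked share was 11.2% in AKO and 16.5% in WT for genes under 5 kb, and 18.1% in AKO and 28.6% in WT for genes over 50 kb. At 3′ ends the order was the other way, 12.5% in AKO and 15.2% in WT for genes under 5 kb and 5.68% in AKO and 6.47% in WT for genes over 50 kb. In a gene under 5 kb the 3′ end lies near the start. Of peaks at 3′ ends of genes of any length, 19.99% in AKO and 18.1% in WT lay within 3 kb of the gene's own start. The part of this nearness in the 3′ marking of short genes was not tested.

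**Figure D2:**
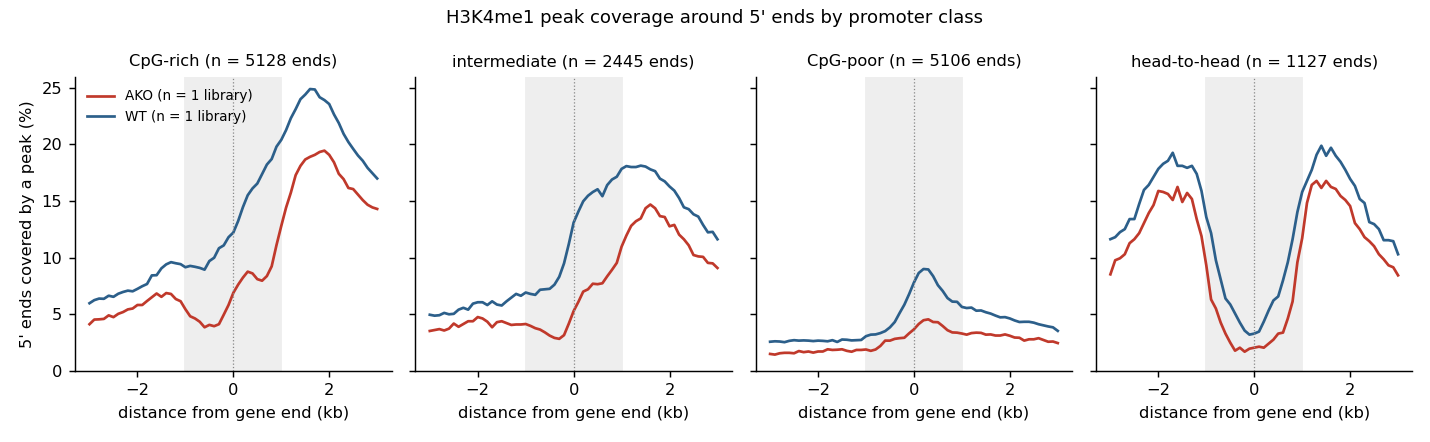
Share of 5′ ends covered by an H3K4me1 peak (y axis, %) against the distance from the 5′ end in the direction of transcription (x axis, kb) for CpG-rich, intermediate, CpG-poor and head-to-head promoters, in AKO (red) and WT (blue), with the 1 kb window shaded. Coverage is highest well downstream at CpG-rich promoters, at 200 to 300 bp downstream at CpG-poor promoters and on both sides of a valley at head-to-head promoters.

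Most AKO end peaks had a WT partner, while many WT end peaks had none in AKO. No WT peak overlapped 494 of the AKO end peaks (10.2%), against a background of 23.8% of all AKO peaks on these chromosomes. No AKO peak overlapped 2971 of the WT end peaks (42.9%), against 39.4% of all WT peaks. A partner was thus found for 89.8% of AKO end peaks (88.9 to 90.6) and 75.05% of other AKO peaks (74.7 to 75.4), and for 57.1% of WT end peaks (55.95 to 58.3) and 61.0% of other WT peaks (60.6 to 61.4). End peaks are taller than others and tall peaks find a partner more often, so the shares were also taken within ranges of height. Among peaks of 20 to 24 fragments, a partner was found for 96.9% of AKO end peaks and 89.8% of other AKO peaks, and for 49.8% of WT end peaks and 67.5% of other WT peaks. WT end peaks had a partner less often than other WT peaks in each of the 5 ranges of height. At 35 fragments and over, 168 of 168 AKO end peaks had a partner, and 1146 of 1173 WT end peaks had one (97.7%, 96.7 to 98.41) against 98.8% of other WT peaks (98.42 to 99.1). The AKO end peaks without a partner were weak, with a median of 15 fragments and 348 bp, against 20 fragments and 604 bp for those with one. WT end peaks without a partner had a median of 18 fragments and 444 bp, against 28 fragments and 1042 bp for those with one.

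**Figure D3:**
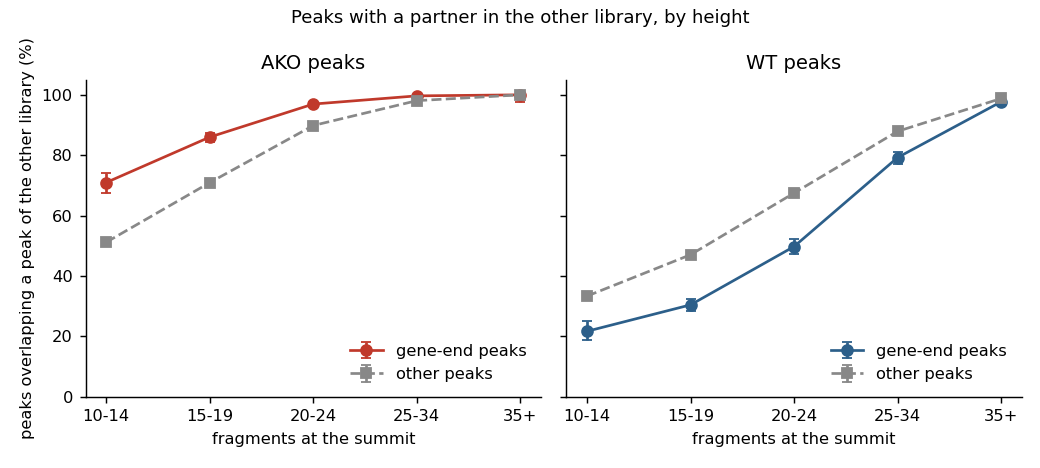
Share of peaks overlapping a peak of the other library (y axis, %) against the fragments at the summit (x axis, 5 ranges) for AKO peaks (left) and WT peaks (right), at gene ends (coloured) and elsewhere (grey), with Wilson 95% intervals. At 20 to 24 fragments the gene-end share is 96.9% for AKO and 49.8% for WT peaks, against 89.8% and 67.5% for AKO and WT peaks elsewhere.

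In the sites marked in both libraries, end peaks were also lower in AKO, and by more than peaks elsewhere. Overlapping peaks of both lists were merged into regions, and 4364 shared regions held an end peak. Their median pileup was 13.6 in AKO and 18.4 in WT, a median of 21 fragments in AKO and 29 in WT, with a median AKO to WT ratio of pileup of 0.750. In the 36560 other shared regions the median ratio was 0.873. The AKO pileup was at least 1.5-fold lower in 1387 gene-end regions, 31.8% of them (30.4 to 33.2), against 15.6% of all shared regions. It was at least 1.5-fold higher in 22, 0.504% of them, against 1.47% of all shared regions. The median ratio fell with height in both sets, and gene-end regions had the lower one in each of 5 groups of mean pileup, from 0.899 against 0.956 in the lowest to 0.697 against 0.778 in the highest. A shared region needs a called peak, of at least 10 fragments, in both libraries, so low groups leave less room for a large deficit. The part of this limit in the fall with height was not tested. The 5′ and 3′ ends differed here as well, with a median ratio of 0.723 in 2222 regions with a peak nearest a 5′ end and of 0.807 in 1186 regions with a peak nearest a 3′ end. The 3′ value still lay below that of the other shared regions.

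**Figure D4:**
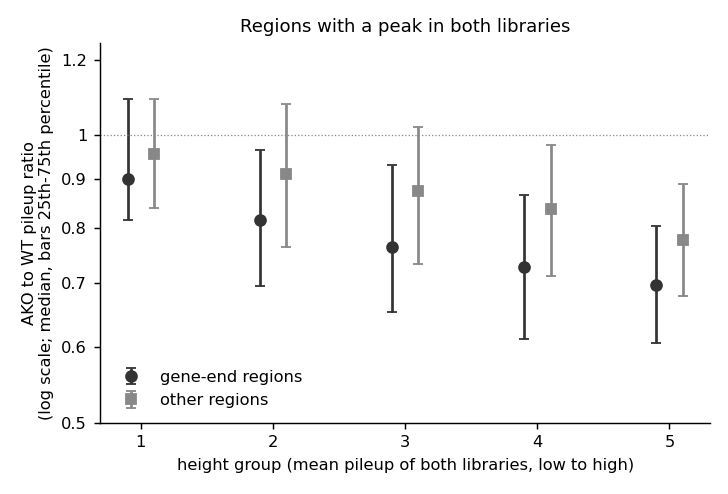
AKO to WT ratio of pileup (y axis, log scale) in regions with a peak in both libraries, by 5 groups of mean pileup from low to high (x axis), for gene-end regions (black) and other regions (grey); points are medians and bars run from the 25th to the 75th percentile. Gene-end regions have the lower median in each group, 0.697 against 0.778 in the highest.

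Single peaks were the rule at gene ends, and flanking pairs, with a midpoint on each side of the end, were a minority in both libraries. Of the 4946 marked ends in AKO, 4443 (89.8%) had a single peak, 430 (8.69%) a flanking pair and 73 several peaks on a single side. Of the 7050 marked ends in WT, 6356 (90.2%) had a single peak, 629 (8.92%) a flanking pair and 65 several peaks on a single side. Pairs were more frequent at marked 3′ ends, 13.1% in AKO (11.5 to 15.01) and 11.9% in WT (10.5 to 13.5), than at marked 5′ ends, 5.75% in AKO (4.88 to 6.76) and 6.73% in WT (5.97 to 7.59). Within each kind of end the intervals of the libraries overlapped. The share of pairs depends on the distance allowed, at 2.13% of marked ends in AKO and 1.83% in WT within 500 bp and at 15.7% in AKO and 18.7% in WT within 2 kb. It also depends on the strength of the peaks, at 3.26% in AKO and 3.66% in WT with a −log10 q of at least 5. Both peaks of a pair were of similar height, with medians at 5′ ends of 18.5 fragments upstream and 19 downstream in AKO and of 19 upstream and 21 downstream in WT. The gap between them was 398 bp at the median in AKO and 376 bp in WT, and never under 152 bp in AKO and 151 bp in WT. Single peaks at 5′ ends lay downstream in 69.2% of cases in either library. They covered the start base in 36.9% of 2199 cases in AKO and in 49.3% of 3385 cases in WT.

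Pairs often became single peaks between the libraries. Of the 247 5′ ends with a pair in WT, 35 had a pair in AKO, 120 a single peak, 2 several peaks on a single side and 90 no end peak. Of the 136 5′ ends with a pair in AKO, 92 had a single peak in WT, 35 a pair, 1 several peaks on a single side and 8 no end peak. A 5′ end with a WT pair was marked in AKO in 63.6% of cases (57.4 to 69.3), and one with a single WT peak in 54.3% (52.6 to 56.0). Where such ends were marked in both libraries, the median AKO to WT ratio of the highest pileup was 0.709 for WT pairs and 0.713 for single WT peaks. The mark was lower in AKO to a similar degree in both configurations. The pair with the tallest lower summit in WT lay at the 5′ end of Jag2, a Notch ligand gene, and it was a pair in both libraries. Its upstream and downstream summits had 29 and 38 fragments in AKO and 45 and 60 fragments in WT. At the 3′ end of Mroh2a the AKO library had a pair of 33 and 70 fragments, and the WT library a single peak of 74 fragments. Insm1, a zinc finger factor of neuroendocrine cells, had a pair of 32 and 47 fragments at an unoriented end in AKO and a single peak of 66 fragments in WT. At an unoriented end of Ank1, encoding ankyrin of the red cell membrane, the AKO library had a single peak of 23 fragments, and the WT library a pair of 41 and 38. At the 3′ end of Pola2, a subunit of DNA polymerase alpha, both had a pair, with 22 and 25 fragments in AKO and 34 and 34 in WT.

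A midpoint rule can move a peak across the 1 kb limit when the libraries divide the same marked stretch differently, so differences at single ends were also read over the whole stretch of overlapping peaks. Among the 4096 ends marked in both libraries, the highest end pileup was at least 1.5-fold lower in AKO at 1418 (34.6%) and at least 1.5-fold higher at 48 (1.17%). Over whole stretches 1372 (33.5%) were lower and 23 (0.562%) higher. Of the 48 ends higher by the midpoint rule, 23 stayed past the limit and 21 turned to lower in AKO over the stretch. Of the 1418 lower ends, 1334 stayed past the limit. The 6 largest deficits in AKO by the midpoint rule lay at Insyn2a, Sall3, Neurog2, Sema5b, Fgf11 and Amph. The Insyn2a end had 12 fragments in AKO and 62 in WT, with a second AKO peak of 26 fragments in the same stretch. Sall3, a zinc finger transcription factor gene, had 34 fragments in AKO and 78 in WT, and Sema5b, a semaphorin guidance cue, had 50 in AKO and 85 in WT, each with 1 peak per library in the stretch. Amph, encoding amphiphysin, had 25 fragments in AKO and 59 in WT. Neurog2, a proneural transcription factor gene, had 16 fragments in AKO and 56 in WT at the end, but 46 in AKO over the stretch. Fgf11 had 14 fragments in AKO and 48 in WT at the end and 31 in AKO over the stretch.

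The 6 ends with the largest excess in AKO were at Hcrtr1, Camk2b, Rps6kl1, Foxb2, Lef1 and Socs1. Over the stretch the excess remained only at Hcrtr1, the orexin receptor gene, with 40 fragments in AKO and 34 in WT there, and 40 in AKO and 13 in WT at its 3′ end. At Lef1, a transcription factor of the Wnt pathway, the end had 30 fragments in AKO and 13 in WT, but the stretch had 30 in AKO and 47 in WT. Camk2b, a calcium-dependent kinase gene, likewise had 36 fragments in AKO and 17 in WT at the end, and 36 in AKO and 60 in WT over the stretch. At 5 of these 6 ends the WT summit was the higher one over the stretch.

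The tallest end peaks were mostly shared. Those of the AKO library lay at Mroh2a (70 fragments), Fndc10 (51), Cacng4 (50), Sema5b (50) and Scd4 (49), and the overlapping WT peaks had 74, 49, 72, 85 and 47 fragments at the same genes. Those of the WT library lay at Sema5b (85), Sall3 (78), Mroh2a (74), Rhbdl1 (73) and Kcnc4 (73). AKO peaks overlapped each of them, with 50 fragments at Sema5b, 34 at Sall3, 70 at Mroh2a, 43 at Kcnc4 and 53 at Rhbdl1, where the AKO midpoint lay outside the limit. Of these, Fndc10 and Scd4 had slightly more fragments in AKO. More than 1 kb from any peak of the other library lay 290 AKO and 2173 WT end peaks. The tallest such AKO peaks were at Tmem265 (26 fragments), Sun3 (24), 2610044O15Rik8 (23), Wdr82 (23) and Aptx (22). The tallest such WT peaks were at Adamts3, a procollagen protease gene (47 fragments), Aktip (43), Kcnc1, a potassium channel gene (42), Cd34 (39) and Clu, encoding clusterin (38).

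Thermogenic genes, the aim named in the series description, were often marked at an end in both libraries. Of 45 genes of the list on these chromosomes, 25 (55.6%) had an end peak in AKO and 29 (64.4%) in WT, against 21.8% in AKO and 30.1% in WT of all 20665 protein-coding genes. Of the 22 ends marked in both, 21 were lower in AKO over the stretch and 8 at least 1.5-fold lower, against 33.5% of all such ends, and the median ratio was 0.6997 against 0.742 over all. The share past the limit, 8 of 22, was near that background. Ucp1 had 14 fragments in AKO (chr8:83290248-83290582) and 16 in WT (chr8:83290005-83290522) at its 5′ end. Cidea, a lipid droplet protein of thermogenic fat, had 24 fragments in AKO and 43 in WT. Prdm16, which specifies brown and beige fat, had 23 fragments in AKO and 35 in WT at its 5′ end. Elovl3, an elongase of very long chain fatty acids, had 21 fragments in AKO and 51 in WT at its higher end, with 26 in AKO over the stretch, and 25 fragments in WT with no AKO peak at its lower end. The fatty acid transport protein gene Slc27a1 had 18 fragments in AKO and 39 in WT. Ppargc1a, a coactivator of mitochondrial biogenesis, had an end peak of 37 fragments in AKO, and the overlapping WT peak had 53 fragments with its midpoint outside the limit. Its end in this annotation is the most distant of its start sites. Ebf2, which marks precursors of brown fat, had a pair of 12 and 15 fragments in WT and no AKO end peak, and Cox7a1, a subunit of cytochrome oxidase, had 15 fragments in WT at its 3′ end and none in AKO. Dio2 and Adrb3 had no end peak in either library. Lonp1 itself had a WT peak of 23 fragments, 811 bp upstream of its 5′ end, and no AKO peak overlapping it, and since the deleted part is not known this does not check the knockout.

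Genes of adipocyte identity and lipid storage were marked at an end at 10 of 40 in AKO and 16 in WT, against 21.8% in AKO and 30.1% in WT of all genes. Fabp4, a fatty acid binding protein, had 13 and 19 fragments at its ends in WT and no AKO end peak, and Lep, encoding leptin, had 18 in WT and none in AKO. Fasn, the fatty acid synthase, had 29 in WT and none in AKO at its 5′ end. Rxra, the partner of PPARG, had 14 fragments in AKO and 32 in WT at its 3′ end, with 27 in AKO over the stretch. Plin4, a lipid droplet coat protein, had 38 in AKO and 53 in WT. Other members went the opposite way. Slc2a4, the insulin-responsive glucose transporter GLUT4, had 22 fragments in AKO and 16 in WT, and Gpam, an acyltransferase of glycerolipid synthesis, had 12 in AKO at its 5′ end and no overlapping WT peak. Srebf1, a regulator of lipid synthesis genes, had 26 in AKO and 13 in WT at its 5′ end, with 25 in WT over the stretch, and 24 in WT with no AKO peak at its 3′ end. Pparg and Adipoq had no end peak in either library. Genes of lipolysis and adrenergic signalling were marked at 7 of 23 in AKO and 12 in WT. Adrb1, the beta-1 adrenergic receptor, had 28 fragments in AKO and 49 in WT, Hcar1, the lactate receptor, had 17 in AKO and 31 in WT, and Pnpla2, the first lipase of triglyceride breakdown, had 14 in WT and none in AKO.

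Mitochondrial lists were small and mixed. Oxidative phosphorylation genes were marked at 7 of 26 in AKO and 6 in WT, but no end was marked in AKO alone without an overlapping WT peak. At Cyc1, of complex III, the end had 16 fragments in AKO and none in WT, and the stretch 24 in AKO and 27 in WT. TCA cycle genes were marked at 5 of 28 in AKO and 9 in WT, fatty acid oxidation genes at 2 of 20 in AKO and 5 in WT, and mitochondrial proteostasis genes at 6 of 28 in AKO and 9 in WT. Atp5d, of the ATP synthase, had 31 fragments in AKO and 47 in WT at its 3′ end. Cox8a, of cytochrome oxidase, had 31 fragments in AKO and 31 in WT. Cpt1a, the carnitine palmitoyltransferase of liver type, had 18 in WT and none in AKO, while Cpt1b, the muscle type, had 22 in AKO and 32 in WT. Integrated stress response genes were marked at 9 of 23 in either library, with 8 3′ ends in AKO and 8 in WT but 2 5′ ends in AKO and 7 in WT. At Ddit3, encoding the stress factor CHOP, the 3′ end had 32 fragments in AKO and 26 in WT. Fgf21, a hormone released on mitochondrial stress, had 29 fragments in AKO and 48 in WT at its 5′ end. Trib3, a pseudokinase gene, had 23 fragments in AKO at its 3′ end and 16 in WT at its 5′ end, and over the stretch of the 3′ end 36 in AKO and 49 in WT. Among H3K4 enzymes and 2-oxoglutarate dioxygenases, 3 of 23 genes were marked in each library, and 2 of them in both. Tet1, a dioxygenase of 5-methylcytosine, had 14 fragments in AKO and 24 in WT, and Wdr5, a core subunit of the H3K4 methyltransferase complexes, had 21 in AKO and 18 in WT.

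Genes that mark other adipose tissue cells carried end peaks too. Endothelial genes were marked at 12 of 19 in either library, and 7 of their 13 ends marked in both were at least 1.5-fold lower in AKO over the stretch, against 33.5% of all such ends. Plvap, of endothelial fenestrae, had 38 fragments in AKO and 61 in WT, Sox18, an endothelial transcription factor gene, 39 in AKO and 55 in WT, and Cldn5, a tight junction protein, 18 in AKO and 32 in WT at each of its ends. Both Cldn5 ends are among the 7, so the same peak can count more than once. Erg had 12 in AKO and 32 in WT at the end and 28 in AKO over the stretch, while Tie1 had 28 in AKO and 21 in WT. Macrophage genes were marked at 6 of 26 in AKO and 9 in WT, extracellular matrix genes at 8 of 26 in AKO and 11 in WT, and the genes of other tissues at 4 of 23 in AKO and 7 in WT. Of defining markers of the labelled cell type, 2 of 8 adipocyte genes had an end peak in AKO (Cebpa and Lipe) and 2 in WT (Fabp4 and Lep), and the brown and beige markers had one at 4 of 4 in AKO and 3 in WT. Their summed fragments were 42 in AKO and 37 in WT for adipocyte markers, and 98 in AKO and 94 in WT for brown and beige markers. These sums leave out WT peaks that overlapped the AKO end peaks of Cebpa and Ppargc1a with a midpoint outside the limit. Over whole stretches adipocyte markers summed to 42 in AKO and 73 in WT, and brown and beige markers, 4 of 4 in either library, to 98 in AKO and 147 in WT. Endothelial markers (2 of 5 marked in either library) summed to 36 in AKO and 47 in WT, and macrophage markers to 20 in AKO (1 of 5 marked) and 55 in WT (2 of 5). Progenitor markers summed to 21 in AKO (1 of 4 marked) and 87 in WT (3 of 4), lymphocyte markers to 32 in AKO (2 of 4) and 71 in WT (3 of 4), and skeletal muscle markers to 28 in AKO (1 of 4, Acta1) and 0 in WT. Over whole stretches macrophage markers summed to 37 in AKO and 55 in WT, and skeletal muscle markers to 28 in AKO and 34 in WT. Pecam1, Cdh5, Ptprc, Adgre1, Pdgfra and the neuron and hepatocyte markers had no end peak in either library. The part of these cells in the differences was not tested, and in a bulk sample fewer cells of a type and less mark per cell cannot be told apart.

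Across 27 groups of genes, 14 lists and 13 families by symbol prefix, fewer genes were marked in AKO in 19, equal numbers in 4 and more in 4, which were ribosomal proteins, mitochondrial ribosomal proteins, olfactory receptors and the oxidative phosphorylation list. On the oxidative phosphorylation list the excess of 1 gene came from the midpoint rule, since a WT peak overlapped at both genes marked in AKO alone. With the prefixes Rpl and Rps, 43 of 91 genes were marked in AKO and 37 in WT. Without the Rps6k kinases and Rps19bp1, which the prefix takes in and which were removed after the values were seen, 42 of 82 (51.2%) were marked in AKO and 33 (40.2%) in WT. The peaks lay mostly at 3′ ends, 29 of 62 in AKO and 22 in WT, with 3 5′ ends in AKO and 4 in WT. In these genes, with a median length of 3.17 kb, the 3′ end is also near the start. The part of this nearness in their marking was not tested. Of the 44 ends marked in AKO, 10 had no overlapping WT peak, among them Rps3 (16 fragments), Rps13 (16) and Rpl11 (18). This compares with 7.82% of all ends marked in AKO and with 140 of the 1400 3′ ends marked in AKO. Of the 30 ends marked in both, 22 were lower in AKO, with a median ratio of 0.830. At Rpl18 the 5′ end had 36 fragments in AKO and 46 in WT. Mitochondrial ribosomal protein genes were marked at 19 of 78 in AKO and 17 in WT, a difference of a few genes. Of their ends, 5 were marked in AKO with no overlapping WT peak and 5 in WT with no overlapping AKO peak. Other ends were marked in a single library by the midpoint rule though the other library overlapped, 4 in AKO and 1 in WT. Fewer Hox genes, the positional regulators of the body axis, were marked in AKO than in WT. Of 39, 17 (43.6%) were marked in AKO and 30 (76.9%) in WT, and all 17 were also marked in WT. No Hox end was marked in AKO alone, and pairs were found at 1 gene in AKO and 11 in WT. Of the 35 Hox ends marked in WT, 17 had no AKO peak overlapping, against 37.1% of all ends marked in WT. Among 5′ ends it was 7 of 15 for Hox genes, against 1479 of all 3669 marked in WT. These are few ends, and a difference of the Hox share from the background was not tested. Hoxd1 had 24 fragments in AKO and 43 in WT, and Hoxa2, Hoxa11 and Hoxa13 had WT pairs with highest summits of 29, 26 and 25 fragments and no AKO end peak. Hox genes lie in dense clusters, so neighbouring ends can share a peak. Olfactory receptor genes were marked at 7 of 1104 in AKO and 4 in WT, and none of 354 vomeronasal receptor genes was marked in either library.

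**Figure D5:**
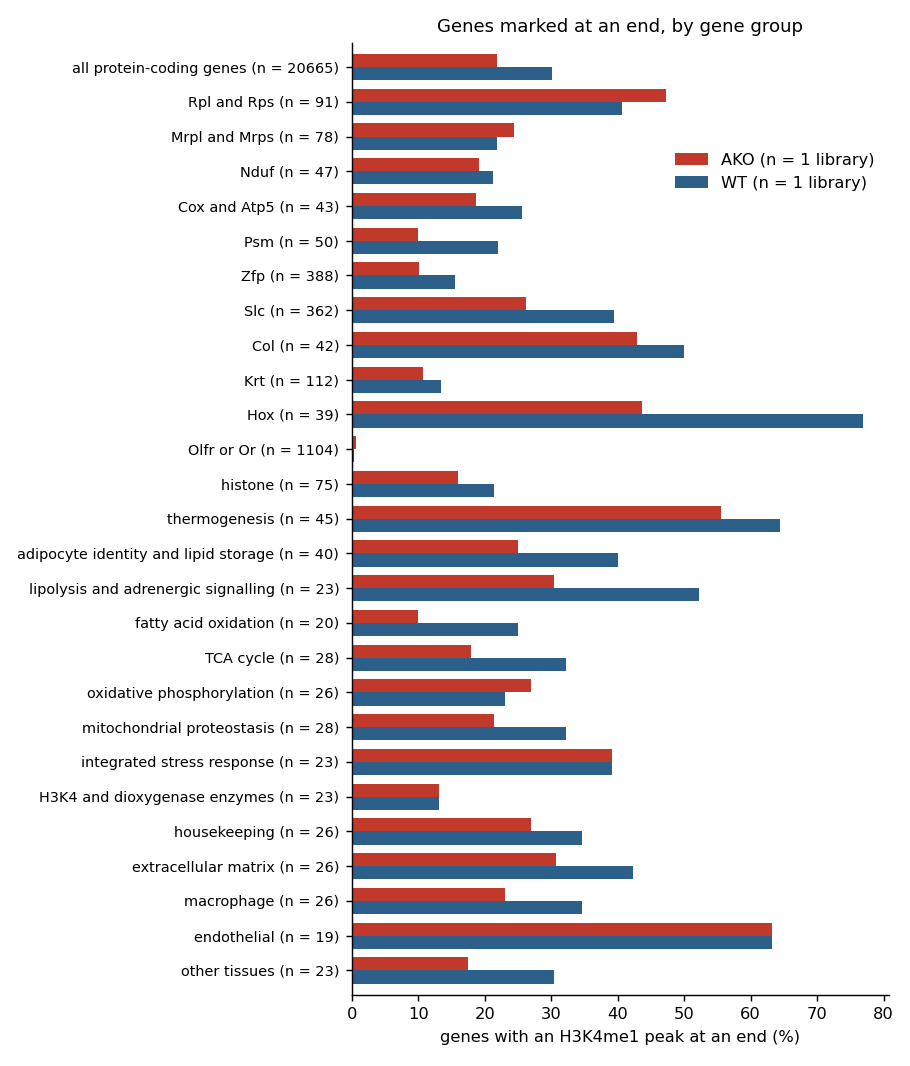
Share of genes with an H3K4me1 peak at an end (x axis, %) by gene group (y axis, with the number of genes on chromosomes 1 to 19), in AKO (red, upper bar) and WT (blue, lower bar); vomeronasal receptors, at 0 in both, are not drawn. Hox genes reach 43.6% in AKO and 76.9% in WT, and Rpl and Rps genes 47.3% and 40.7% in AKO and WT.

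Starts marked in AKO alone were few, and they were more often head-to-head and held an ETS core more often than those marked in both. An end peak in AKO with no overlapping WT peak was found at 164 5′ ends, and the reverse, a WT end peak with no overlapping AKO peak, at 1479. Of the 164, 24 (14.6%, 10.04 to 20.9) were head-to-head, against 5.27% of the 1479, 3.67% of the 2016 marked in both, 7.39% of those marked in neither and 6.85% of all 5′ ends. If a peak of the other library overlapped, the head-to-head share was 10.2% of 187 with the end peak in AKO (6.60 to 15.3). With the end peak in WT it was 7.47% of 174 (4.42 to 12.4). Both intervals overlapped that of starts marked in AKO alone, so the higher share was not shown to be particular to those. The core CCGGAA was searched on both strands in the 300 bases around the start and found in 19.6% of all 12679 promoters. It was in 39 of 113 promoters marked in AKO alone (34.5%, 26.4 to 43.7), in 16.9% of 1056 marked in WT alone, in 13.6% of 1404 marked in both and in 20.3% of 9838 marked in neither. The remaining marked starts had an end peak in a single library that a peak of the other library, with its midpoint outside the limit, overlapped. Of these the core was in 30.8% of 133 with the end peak in AKO (23.6 to 39.1). With the end peak in WT it was in 29.6% of 135 (22.6 to 37.8). Over all classes both intervals overlapped that of starts marked in AKO alone, so the higher share was not shown to be particular to those. Within the CpG-rich class the core was in 31 of 52 marked in AKO alone (59.6%, 46.1 to 71.8). It was in 20.8% of 530 marked in WT alone, 16.5% of 726 marked in both and 36.8% of 3660 marked in neither. Where the other library overlapped, it was in 42.5% of 80 with the end peak in AKO (32.3 to 53.4). With the end peak in WT it was in 31.3% of 80 (22.2 to 42.1). In this class the interval for AKO alone overlapped the former and lay above the latter. The NRF1 palindrome, whose letters hold no ETS core, was in 10.6% of promoters marked in AKO alone (6.18 to 17.6), 5.30% of those in WT alone (4.11 to 6.82), 4.20% of those in both, 7.67% of those in neither and 7.15% of all. The interval for AKO alone thus overlapped that for WT alone and held the share of all promoters. It lay above that of promoters marked in both (3.27 to 5.38). The other motifs searched were the TATA box TATAAA, the CCAAT box, the GC box GGGCGG, the ERR element, the DR1 element, the EBF palindrome and the C/EBP site TTGCNNAA, also on both strands, for which the intervals of promoters marked in AKO alone and in WT alone overlapped as well. Against promoters marked in both, the GC box was less frequent in AKO alone, 51.3% (42.2 to 60.3) against 63.6% (61.1 to 66.1). For the remaining motifs of this group the intervals of AKO alone and of both overlapped. The peaks at ends marked in AKO alone were weak, with a median of 15 fragments. Of AKO peaks with 15 to 19 fragments, a WT partner was found for 86.0% at gene ends and 70.9% elsewhere. The smallest called summit held 10 fragments. A match of the core does not show that a factor binds there. Surf2, Ap3s2 and Ddx39b, shown above, are CpG-rich members of this set with the core.

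The 1 kb limit cut through peaks that looked alike on both sides. In AKO the members just inside lay at Bmp8b, Zfp120 and Plxnc1 with 17, 14 and 24 fragments, and the peaks just outside at Adat3, Elof1 and Spcs1 with 14, 17 and 13. In WT those just inside lay at Mus81, Ppp1r1b and Nectin1 with 29, 14 and 27 fragments, and those just outside at Vasn, C77080 and Rhod with 18, 16 and 22. Several genes lay within the limit of 10.95% of the AKO and 10.3% of the WT end peaks, so members can share a peak between genes.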

How the data were processed

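H3K4me1 ChIP-seq peak lists of 1 AKO and 1 WT library were used, grouped by the genotype and antibody labels. The submitters' processing notes name Bowtie2 2.2.5, MACS2 2.2.1, FastQC 0.11.3 and bcl2fastq with the build mm10, while the file headers name MACS 2.1.1.20160309. Per the file headers, narrow peaks were called against the same input with a q-value limit of 0.05 and without pooling, and 14733950 AKO and 15015805 WT tags remained after removal of duplicates, against 9537585 input tags. For each peak the authors deposited MACS output, namely the summit's pileup signal, its fold enrichment over the local background, and −log10 values of p and q. Narrow mode splits broad H3K4me1 domains, which moves peak numbers, midpoints and pairs. Per the file headers, signal was scaled to the input's tag number. Pileup divided by the scale factor (0.647 for AKO, 0.635 for WT) was whole within 0.02, which gives fragments.

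A RefSeq table of GRCm38.p6 gave gene positions, and a RefSeq promoter table of the same build gave strand, CpG content and motifs. The 20665 protein-coding genes have 41330 ends. Peak overlap required 1 bp. CpG and motif counts used 250 bases before and 50 after the start. The 14 gene lists were matched by symbol, and list members on the X chromosome were left out. Members, lists and rules for named genes were chosen with earlier results of these data known. Named genes were 14 thermogenic and fat genes, the tallest, the most different and the most isolated end peaks, the tallest pairs and the extreme members of each list. Other genes of the lists and families, and the reading over whole stretches, were chosen after their values were seen. No test of genotype was made with 1 library each. Wilson 95% intervals cover counting error only. Counting was tested on simulated peaks with known members, pairs and partners. Alternatives covered distance, summit, stricter peaks, equal numbers, overlap and joining. Python 3.11.15, numpy 2.4.6, pandas 2.3.3, scipy 1.17.1 and matplotlib 3.10.9 were used.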

Additional observations from a re-analysis of the deposited data

How the results depend on the processing

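With 8 settings, the reported one among them, the ratio of peak number and the ratio of pileup were lower at gene ends than elsewhere in all 8, and so was the share of WT peaks with a partner, while that of AKO peaks was higher. Of 54 alternative values 18 lay within the 95% counting interval of the reported value and 36 lay outside it. Reversal was scored only for the ratios of number and of pileup, and neither reversed. The reported share of pairs was lower in AKO (8.69%) than in WT (8.92%), but this order changed in several settings. Among them were 500 bp (2.13% in AKO, 1.83% in WT), summits (9.39% and 9.28%) and a fold enrichment of at least 4 (6.36% and 6.26%). Using summits in place of midpoints, or leaving out the 0.1% of peaks with the highest pileup, moved no value outside its counting interval. With 1 library per genotype, no setting speaks to the spread between animals, and ends with summits under 10 fragments were not detectable. No paired analysis was possible because each genotype has 1 library.

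Within 500 bp the share of peaks at gene ends was 4.03% in AKO and 5.13% in WT, the share of AKO end peaks with a partner 92.1%, the median ratio of pileup 0.734, and the share of pairs 2.13% in AKO and 1.83% in WT. Within 2 kb the share of peaks was 15.3% in AKO and 17.2% in WT, the ratio of number 0.770, the share with a partner 86.2% in AKO and 59.4% in WT, the median ratio of pileup 0.778, and the share of pairs 15.7% in AKO and 18.7% in WT. With a −log10 q of at least 5 the share of peaks was 9.73% in AKO and 11.5% in WT, the ratio of number 0.493, the share with a partner 92.7% in AKO and 43.4% in WT, and the share of pairs 3.26% in AKO and 3.66% in WT. With a fold enrichment of at least 4 these were 8.06% in AKO and 9.99% in WT for peaks, 87.3% in AKO and 54.3% in WT for partners, and 6.36% in AKO and 6.26% in WT for pairs. With the 62194 strongest peaks of each library the ratio of number was 0.790 at gene ends and 1.02 elsewhere, the share with a partner 87.2% in AKO and 61.98% in WT, and the share of pairs in WT 7.19%. With 50% of a peak required to be covered, 86.04% of AKO and 42.8% of WT end peaks had a partner. With fold enrichment in place of pileup the median ratio was 0.786. With peaks within 200 bp joined, the share of pairs was 7.17% in AKO and 7.25% in WT. The causes of these shifts were not tested.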
